A study of Homo sapiens with 14 samples.

Results

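The small RNAs described here are the transcripts of at most 200 bases that are listed in all 7 read-start tables other than that of S1 control replicate 1. Their length is the number of bases for which each table gives a count. The rule found 685 such RNAs among 18515 transcripts listed in the same 7 tables, 401 of them under 100 bases and 284 of 100 to 200 bases. They range from 27 to 200 bases, with a median of 92. The study probed RNA structure in HepG2 cells, a human liver carcinoma line, that were transfected with scrambled siRNA (control) or with siADAR1, an siRNA against the RNA-editing enzyme ADAR1 (knockdown, KD). Poly-A selected RNA was refolded in vitro and cut with S1 nuclease, which prefers single-stranded bases, or with RNase V1, which prefers double-stranded bases. The 5′ end of a sequenced read marks a cut. Positions are as deposited, and whether they name the base cut or the base after it is not stated. There are 2 replicates of each enzyme and condition, described in the study as biological. S1 control replicate 1 stands apart: only 4722 transcripts appear in its deposited table, where the other 7 tables hold 21052 to 22402. It lists 229 of the small RNAs, and its values are given separately.

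Small RNAs of this length include tRNAs, which carry amino acids to the ribosome, spliceosomal snRNAs, which recognise introns through base pairing, and snoRNAs, which guide chemical modification of other RNAs. Their function rests on compact folds of stems and loops. ADAR1 converts adenosine to inosine in double-stranded RNA. Most of these RNAs carry no poly-A tail in their mature form, and what the libraries hold of them is what passed the selection. The files pair the RNAs with identifiers only, and 5 have a name in the study: a tRNA-Arg (uc021ucc.1, 73 bases), the snRNA U2 (uc021xtz.1, 187 bases), the snRNA RNU4ATAC of the minor spliceosome (uc010yzd.1, 130 bases), and the H/ACA snoRNAs SNORA52 (uc001lrs.1, 134 bases) and SNORA67 (uc010cml.1, 137 bases). H/ACA snoRNAs guide pseudouridylation. Several of these RNAs have near-identical copies in the genome, and since the authors kept uniquely aligned reads the count of each stands for reads that match its own copy best.

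The lengths of SNORA52, SNORA67 and RNU4ATAC equal those of their RefSeq transcripts. Of these only SNORA52 is shown base by base. It lies at chr11:811681-811814 on the plus strand of GRCh37, in introns of the protein-coding transcripts of the ribosomal protein gene RPLP2, and it is also covered by an exon of 1 RPLP2 transcript with a retained intron. The 3 stretches that follow, credited to GENCODE on GRCh37, are shown because they hold its most used bases. Capitals mark bases that took at least 3% of the read starts of SNORA52 in every library of the enzyme among the 7. Sequences run 5′ to 3′, and bases are numbered from 1 at the 5′ end.
SNORA52 bases 1 to 30 (chr11:811681-811710), V1: tggTcCatccTaatccctgccggtccatct
SNORA52 bases 1 to 30 (chr11:811681-811710), S1: tggtccatcctaatccctgccggtccATct
SNORA52 bases 36 to 65 (chr11:811716-811745), V1: ctgccaggTTtcgcTtgtggaccagagcac
SNORA52 bases 36 to 65 (chr11:811716-811745), S1: ctgccaggtttCGcTtgtggaccagagcac
SNORA52 bases 88 to 117 (chr11:811768-811797), V1: tgAgcagggctccagtgggctcacgtCatg
SNORA52 bases 88 to 117 (chr11:811768-811797), S1: tgagcagggctccaGtgggctcacgtcatg

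The enzymes used different bases of SNORA52. V1 cut near the 5′ end, where base 4 took 11.3 to 15.6% of its read starts in the 4 V1 libraries, and base 90 took 4.84 to 6.43%. S1 cut at base 102, with 12.1 to 17.9% in the 3 S1 libraries, and at base 27, with 8.47 to 12.4%. In S1 control replicate 1 base 102 took 28.5% of 583 read starts. At bases 27, 28 and 102 there was no V1 read start among 4504, which allows a share of up to 0.0666%, and at bases 4 and 6 no S1 read start among 1897 in the 3 S1 libraries, which allows up to 0.158%. S1 control replicate 1, not counted in these limits, had 1 read start at base 4. These limits cover counting error only. Base 50 was shared, with 10.7 to 13.0% of V1 and 4.00 to 7.55% of S1 read starts. In the minimum free energy fold predicted from the sequence alone by RNAfold, 62.7% of the bases are paired. Of the V1 read starts 56.8 to 61.1% fell on these bases, against 42.1 to 46.6% of the S1 read starts, so the V1 and S1 libraries did not overlap. The V1 shares were themselves under the 62.7% of bases that are paired. S1 control replicate 1 gave 48.7%, also under the V1 range.

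Before the results on the set, the libraries need a short description. The 7 tables sum to between 96618292 and 214584779 read starts, and the small RNAs took 0.888 to 1.57% of them. A single long transcript took 34.6 to 54.7%, so libraries were scaled by the median ratio over transcripts and not by their totals. ADAR, the target, had 40.7 and 46.8 RPKM in the control replicates and 15.1 in both KD replicates of PARS-seq, as the authors' means over V1 and S1, and was 62.9 and 67.8% lower with KD. The hepatocyte markers ALB, AFP, APOA1, TTR, SERPINA1 and FGB were at 0 to 0.0821 RPKM in every column of the RPKM table, so these defining markers of the labelled line are at or near 0. Of the markers of other cells, PTPRC and PECAM1 reached at most 0.0892 RPKM, while the fibroblast marker COL1A1 was at 9.75 to 54.7 RPKM. The cells are called HepG2 here as the labels do, and the part of this in the results was not tested.

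A few RNAs held most of the small RNA reads. The most covered, an RNA of 111 bases, had 406961 read starts in S1 control replicate 2, 290326 and 606574 in S1 KD, 869683 and 1197274 in V1 control, and 1916904 and 980341 in V1 KD. Each V1 library thus exceeded each of these S1 libraries, and S1 control replicate 1 had 80494. U2, which pairs with the branch point of introns, came second over the 7 libraries. It had 122311 read starts in S1 control replicate 2, 151281 and 128944 in S1 KD, 228987 and 280905 in V1 control, and 337868 and 468207 in V1 KD. The third, an RNA of 29 bases, went the other way, with 387080 in S1 control, 419936 and 229429 in S1 KD, 30494 and 16769 in V1 control, and 34503 and 9882 in V1 KD. The top 3 RNAs of each library took 69.7 to 85.5% of the read starts of the small RNAs. RNAs under 100 bases took 27.5 to 49.6% of these read starts in S1 libraries and 5.97 to 10.7% in V1 libraries, and the 29-base RNA alone took up to 34.0% in S1. At the other end, 177 of the 685 RNAs had a mean under 10 read starts per library, 129 of them under 100 bases, and 1 had none at all in the 7 libraries. A mean of 100 was reached by 225 and a mean of 1000 by 57.

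Read starts covered few bases of a typical small RNA. The median share of bases with a read start was 5.62 to 8.22% in the V1 and 7.04 to 8.16% in the S1 libraries for RNAs under 100 bases, and 8.19 to 10.3% and 8.49 to 9.29% for RNAs of 100 to 200 bases. RNAs of 100 to 200 bases thus had the higher share in each of the 7 libraries at this size limit, and they also had more read starts per base, with medians of 0.304 to 0.588 against 0.233 to 0.406. With a size limit of 80 bases the order turned in 3 libraries, S1 KD replicates 1 and 2 and V1 control replicate 1, and over RNAs with a mean of at least 10 read starts it turned in all 7. Among transcripts of over 200 and up to 1000 bases the median share was 4.43 to 7.33%, at 0.112 to 0.213 read starts per base. Depth moved with these shares. For the 149 small RNAs with at least 100 read starts in each of the 7 libraries, the order of the size classes turned, with 41.7 to 47.4% of bases covered in the 79 RNAs under 100 bases and 21.4 to 27.0% in the 70 RNAs of 100 to 200 bases. Among these deeply covered RNAs both V1 KD libraries lay above both V1 control libraries, with 44.4 and 46.7% against 41.7 and 42.5% under 100 bases and 26.5 and 27.05% against 24.7 and 25.6% above. Both V1 KD libraries also summed to more read starts, 214584779 and 122526174, than the V1 control libraries, with 113273927 and 116443053. Each library was then thinned to the smallest total. The median of V1 KD replicate 1, the deepest library, over all RNAs under 100 bases went from 8.22 to 5.32%. V1 control replicate 1 also came to 5.32%. The deeply covered RNAs alone were not thinned, so the part of depth in their order was not tested.

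The cuts fell on few bases, and in RNAs under 100 bases many fell near the 5′ end. Over RNAs with at least 100 read starts in a library, the most used base took a median of 41.4 to 46.8% of an RNA's read starts in V1 and 28.9 to 31.1% in S1 libraries under 100 bases, so that V1 lay above S1. From 100 to 200 bases it took 33.8 to 37.7% in V1 and 29.3 to 34.0% in S1. Summed over the class, the first 10 bases took 56.6 to 61.3% of V1 and 79.2 to 85.4% of S1 read starts under 100 bases, and 9.38 to 18.01% and 0.555 to 1.15% from 100 to 200 bases. These sums are weighted by the most covered RNAs. The median over RNAs with at least 100 read starts was 32.3 to 39.3% in V1 and 20.1 to 22.01% in S1 under 100 bases, where V1 was now the higher enzyme, and 1.62 to 2.41% and 0.582 to 1.18% in the longer class. The last 20 bases were nearly empty. They held 0.106 to 0.378% of the read starts under 100 bases in the 7 libraries, 0.0184 to 0.0364% from 100 to 200 bases in V1 and 1.55 to 2.32% in S1, and the median RNA had none. A read that starts there would be at most 20 bases long, and whether such reads were kept was not tested.

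Profiles of read starts along an RNA overlapped far more between libraries of the same enzyme, control and KD alike, than between V1 and S1. For the 149 deeply covered RNAs, the overlap of the profiles of 2 libraries was computed as the sum over bases of the smaller share of read starts. Its median was 86.2% between V1 replicates, 84.7 to 88.6% between V1 control and V1 KD libraries, 83.9% between the S1 KD replicates and 85.7 to 86.0% between S1 control and S1 KD, so that the ranges of pairs across conditions reached at least as high as those of replicates. Between a V1 and an S1 library it was 27.6 to 31.4%. The most used base was the same in all 4 V1 libraries for 117 of the 149 RNAs and the same in all 3 S1 libraries for 112. For 57 RNAs both held and the enzymes differed in their base, and for 37 RNAs both held and the base was shared. The bases of an RNA share their library and its depth, so these values are descriptions.

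**Figure D1:**
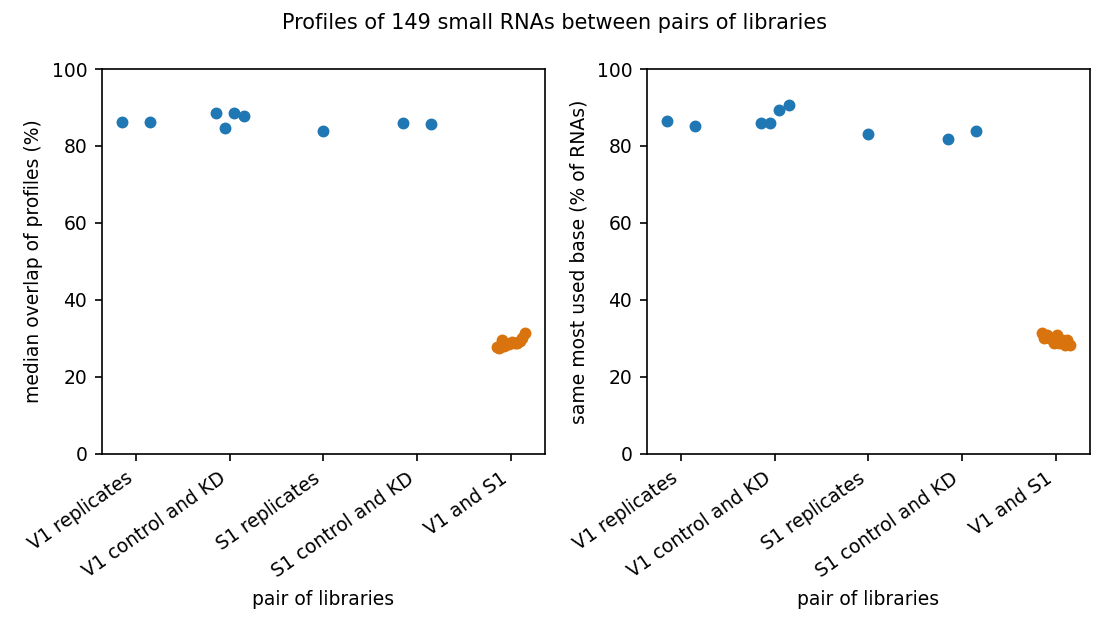
Likeness of read-start profiles between pairs of libraries for 149 small RNAs with at least 100 read starts in each of 7 libraries. Each point is a pair of libraries, grouped by kind along the x axis; the left panel gives the median overlap of profiles in percent and the right panel the percent of RNAs with the same most used base. Pairs of the same enzyme lie between 83.9 and 88.6% overlap, whether of the same condition or not, and V1 and S1 pairs between 27.6 and 31.4%.

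The named RNAs show where these bases are. A tRNA folds into a cloverleaf with the anticodon loop near its middle. The tRNA-Arg was cut by S1 at bases 36 to 39. These took 71.5% of its read starts in S1 control replicate 2, 78.5 and 78.9% in S1 KD, 71.1% in S1 control replicate 1 and 2.81 to 5.01% in the V1 libraries. V1 cut on both sides of this stretch, at base 31 with 18.6 to 19.4% and at base 41 with 20.6 to 26.7% of its read starts. The most used base was 39 in each S1 library and 41 in each V1 library. Of 19 bases with at least 5 read starts in each same-numbered V1 and S1 pair, V1 over S1 was above 0 in all 3 pairs at 7 and below 0 in all 3 at 8.

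In U2 nearly all cuts fell within bases 1 to 31, with 98.0 to 99.1% of S1 and 99.7 to 99.8% of V1 read starts in the 7 libraries. S1 used base 17, with 79.1% in S1 control replicate 2 and 84.7 and 77.6% in S1 KD. V1 used base 10, with 67.8 and 61.7% in V1 control and 65.1 and 61.7% in V1 KD, and bases 21 to 24, with 26.2 to 30.2% in V1 and 0.872 to 1.33% in S1 libraries. Of 35 bases with enough read starts, 18 were above and 15 below 0 in all 3 pairs.

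RNU4ATAC pairs with U6atac in the minor spliceosome. S1 used its bases 43 to 48, with 64.1% of its read starts in S1 control replicate 2 and 73.2 and 57.9% in S1 KD, against 1.32 to 2.52% in V1 libraries. V1 used bases 28 to 33, with 33.7 and 34.8% in V1 control and 36.1 and 39.6% in V1 KD, against 0.173 to 0.656% in S1. In SNORA67 the stretches lay closer. Bases 30 to 33 took 42.6% in S1 control replicate 2, 51.2 and 45.9% in S1 KD and 1.65 to 2.02% in V1. Bases 37 to 41 took 43.95 and 47.3% in V1 control, 48.7 and 50.05% in V1 KD and 0.425 to 0.809% in S1. In each of these stretches the V1 and S1 libraries were far apart. In the stretches that an enzyme used, V1 KD lay above V1 control for both RNAs and S1 control lay below both S1 KD libraries for SNORA67 and between them for RNU4ATAC, with no test.

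**Figure D2:**
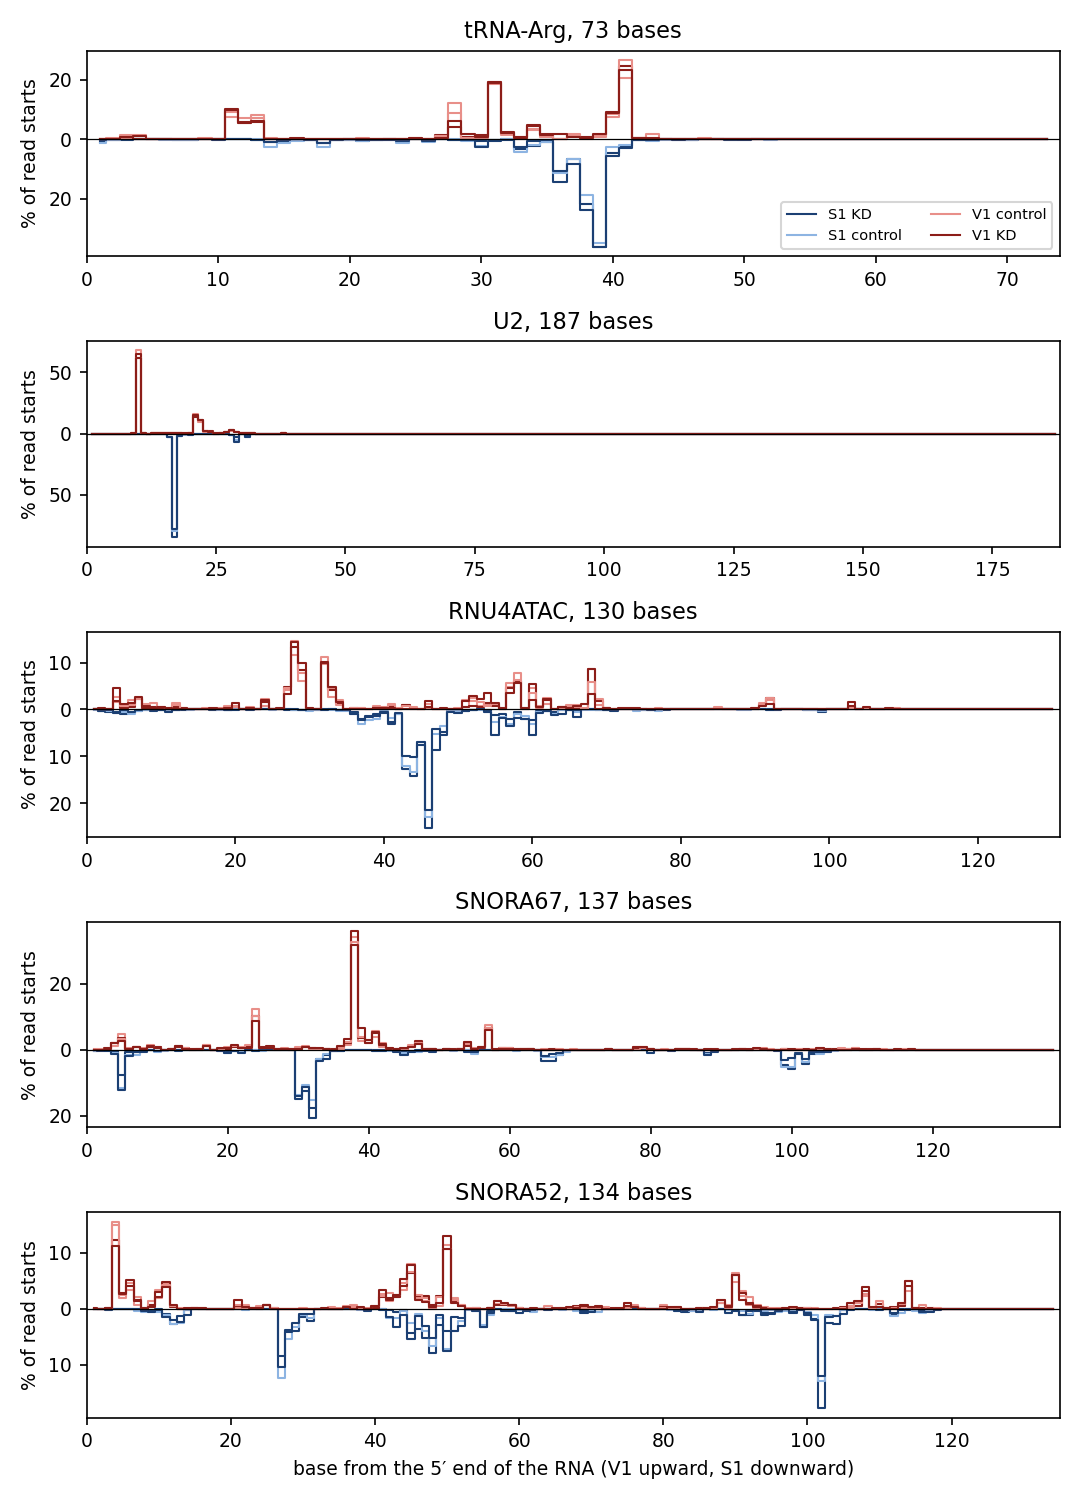
Read starts along the 5 named small RNAs. The x axis is the base from the 5′ end and the y axis the percent of the RNA's read starts in the library, with V1 drawn upward and S1 downward; lines are the 7 libraries, control in light and KD in dark colour, and control lines are often hidden under KD lines. V1 and S1 peaks fall on different bases in tRNA-Arg (41 and 39), U2 (10 and 17), RNU4ATAC (28 and 46) and SNORA67 (38 and 32).

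The level of V1 against S1 cuts over a whole RNA varied more among small RNAs than among longer transcripts. By limma on log2 scaled read starts with a pseudocount of 0.5, 259 of the 508 small RNAs with a mean of at least 10 read starts passed a Benjamini-Hochberg adjusted p of 0.05, with 119 higher in V1 and 140 higher in S1. Scaling by totals without the most covered transcript, which moved the median of all transcripts to 0.19, gave 140 and 112. Over all transcripts it gave 3363 higher in V1 and 1295 higher in S1. With scaling by the median ratio, the test called 23.3% of the 16757 transcripts fitted, 11.3% higher in V1 and 12% higher in S1. Of the size classes, 49.6% of 272 RNAs under 100 bases and 52.5% of 236 RNAs of 100 to 200 bases were called, against 30.2% of 1218 transcripts of over 200 and up to 1000 bases and 21.8% of 15031 longer ones. Read starts of the 4 V1 libraries did not overlap with those of the 3 S1 libraries for 281 of the 508 RNAs, or 55.3%, against 27.4% of all transcripts. The medians were close to 0 in both size classes, at −0.05 and −0.12 log2 V1 over S1, with quartiles from −1.10 to 0.82 and from −1.002 to 1.02. The quartiles were −0.57 and 0.38 for transcripts of over 200 and up to 1000 bases and −0.30 and 0.34 for longer ones.

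**Figure D3:**
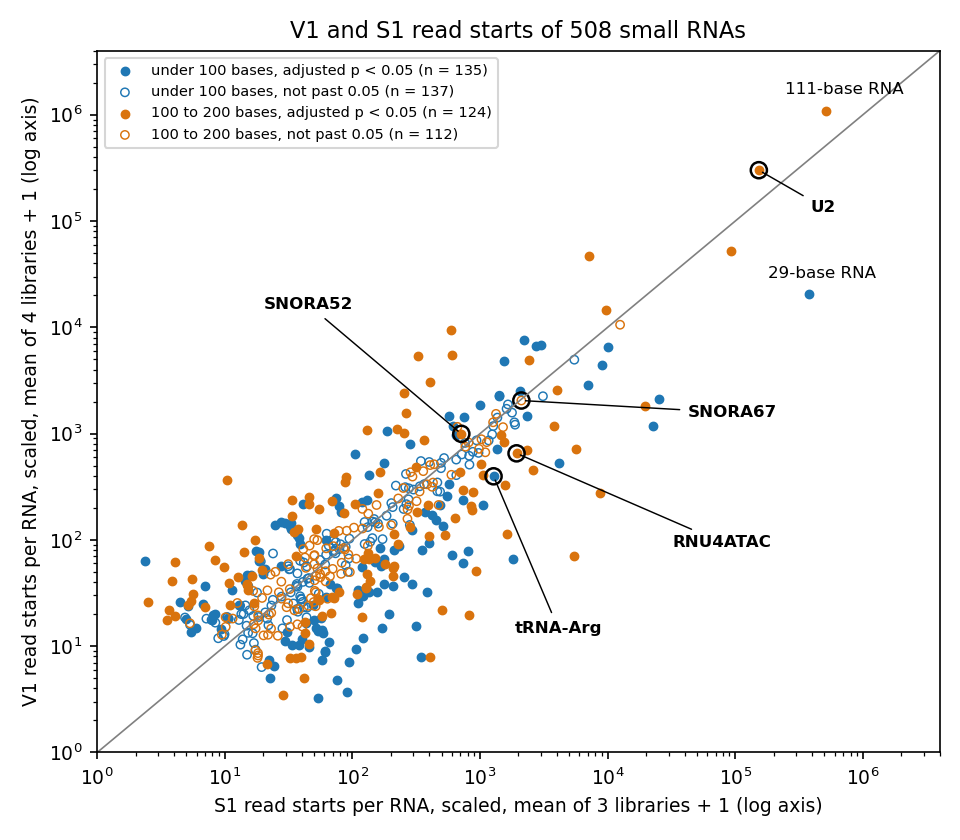
Scaled read starts of the 508 small RNAs with a mean of at least 10 read starts per library, on log axes: mean of the 3 S1 libraries (x) against mean of the 4 V1 libraries (y), each plus 1. Filled points passed an adjusted p of 0.05 for V1 against S1 in limma, 135 under 100 bases in blue and 124 of 100 to 200 bases in orange, open points did not, the line marks equality, and rings mark the named RNAs; points spread on both sides of the line in both size classes.

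Of the named RNAs, tRNA-Arg and RNU4ATAC were higher in S1, U2 and SNORA52 were higher in V1, and SNORA67 did not pass. The tRNA-Arg had 902 read starts in S1 control replicate 2, 1041 and 1325 in S1 KD, 344 and 356 in V1 control, and 732 and 379 in V1 KD. After scaling, V1 over S1 was −1.54 ± 0.22 (log2, SE) with an adjusted p of 0.00134 in limma. RNU4ATAC had 1829 in S1 control, 2262 and 1156 in S1 KD, 756 and 554 in V1 control, and 1120 and 515 in V1 KD, with −1.57 ± 0.22 and an adjusted p of 0.00129. U2, with the read starts given above, reached 1.01 ± 0.24 and an adjusted p of 0.0159.

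SNORA52 had 517 read starts in S1 control, 850 and 530 in S1 KD, 980 and 992 in V1 control, and 1719 and 813 in V1 KD. Its V1 over S1 was 0.60 ± 0.18 (log2, SE) with an adjusted p of 0.0401, and it no longer passed when any of 5 libraries was left out, with an adjusted p of up to 0.141 without V1 KD replicate 1. SNORA67, with 1606 in S1 control, 2351 and 1632 in S1 KD, 1802 and 2215 in V1 control, and 3100 and 2034 in V1 KD, was at 0.06 ± 0.14 with an adjusted p of 0.799. The V1 and S1 ranges of SNORA67 overlap on this scale.

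The largest differences were seen in RNAs without a name. Among those with a mean of at least 100 read starts, an RNA of 164 bases had 5932 read starts in S1 control, 5882 and 3061 in S1 KD, 79 and 73 in V1 control, and 90 and 61 in V1 KD, which gives −6.33 ± 0.18 (log2, SE). Its S1 cuts fell mainly on bases 69 and 70, which took 81.1 and 18.2% in S1 control, among 10 bases with a read start. In the other direction an RNA of 113 bases had 13 in S1 control, 4 and 8 in S1 KD, 283 and 343 in V1 control, and 382 and 568 in V1 KD, for 5.12 ± 0.38. Both RNAs reached the mean of 100 only through the enzyme in which they were high. They were picked for the size of the difference, so that size is a description. RNAs of 133 and 119 bases were at 4.16 ± 0.32 and 4.09 ± 0.23, with 211 to 373 and 424 to 604 read starts in S1 against 2920 to 8513 and 7086 to 13651 in V1. The 29-base RNA was at −4.36 ± 0.33, the 111-base RNA at 1.24 ± 0.35, and an RNA of 109 bases, with 5747 to 6722 read starts in S1 and 36132 to 69833 in V1, at 2.77 ± 0.19. The adjusted p of the 111-base RNA was 0.0290, and it was 0.0707 without S1 KD replicate 1 and 0.0704 without V1 control replicate 2.

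The sign of V1 over S1 was compared between same-numbered pairs of libraries. Of 532 small RNAs with at least 10 read starts in V1 and S1 together in control replicate 2 and in both KD replicates, 172 were above 0 in log2 V1 over S1 in all 3 pairs, 232 below 0 in all 3, and 128 mixed. The 404 with a single sign are 75.9%, close to the 71.5% of all transcripts. A difference beyond 1 on this log2 scale, in the same direction in all 3 pairs, was met by 161 of them, 66 higher and 95 lower, or 30.3%, against 5.70% of all 17151 transcripts with as many read starts. Pearson's r across these RNAs was 0.891 and 0.895 between the control and the KD pairs and 0.874 between the KD pairs, as a description over 532 RNAs that share their libraries.

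The medians by size moved from pair to pair. Under 100 bases the median log2 V1 over S1 was 0.05 in control replicate 2 and −0.27 and −0.37 in the KD replicates. From 100 to 200 bases it was 0.18 in control replicate 2 and −0.09 and −0.35 in the KD replicates. The medians over all transcripts were within −0.01 to 0.01 in these 3 pairs, as the scaling fixes. The signs depend on the setting. Over RNAs with at least 100 read starts control replicate 2 was at −0.05 and −0.01 in the 2 classes, and with a size limit of 120 bases it was at −0.16 in the longer class. With totals without the most covered transcript KD replicate 1 was at 0.14 in the longer class, where the median of all transcripts moved to 0.24. In each of these settings control replicate 2 lay above both KD replicates in both classes. On the small RNAs that S1 control replicate 1 also lists, the medians of control replicates 1 and 2 were −0.09 and 0.01 for 139 RNAs under 100 bases, against −0.21 and −0.41 in KD, and −0.15 and −0.08 for 89 RNAs of 100 to 200 bases, against −0.43 and −0.56 in KD. In both size classes both control pairs thus lay above both KD pairs, and with 2 pairs a condition this is a description.

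**Figure D4:**
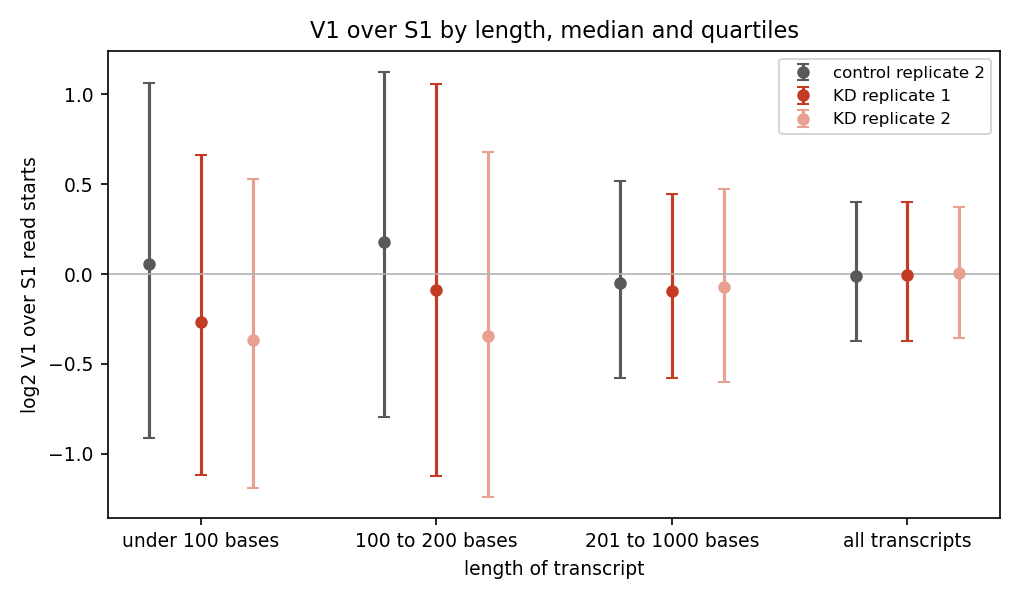
Log2 V1 over S1 read starts (y) by length of transcript (x) in 3 same-numbered pairs of libraries. Points are medians over transcripts with at least 10 read starts and bars reach from the lower to the upper quartile; the quartiles of both small RNA classes are wider than those of all transcripts, and the medians of small RNAs lie higher in control replicate 2 (0.05 and 0.18) than in the KD replicates (−0.37 to −0.09), with signs that change under other settings.

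Few small RNAs passed the test for a change of V1 read starts with knockdown of ADAR1. In V1 KD against V1 control, limma called 7 of 508, 5 higher and 2 lower, while it called 11.5% of all transcripts, 4.66% higher and 6.87% lower. Their median standard errors were 0.42 and 0.39 on the log2 scale for the classes under 100 and from 100 bases, against 0.23 for transcripts of over 1000 bases. The median changes were −0.03 and 0.02 log2, against 0.03 over all transcripts, and an unadjusted p under 0.05 was reached by 41 small RNAs, or 8.07%, against 26.9% of all transcripts. Scaling by equal totals, which moved the median of all transcripts to −0.13, called 6 higher and 15 lower. It called 489 of all 16757 transcripts higher and 1702 lower.

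Several of the rises rest on low counts. The RNA uc021unh.1 of 72 bases had 0 and 4 read starts in V1 control and 23 and 12 in V1 KD, with 57 in S1 control replicate 2, 21 in S1 control replicate 1, and 54 and 49 in S1 KD. Its change was 3.21 ± 0.87 (log2, SE) with an adjusted p of 0.0444, where a count of 0 allows up to 3, and it was 1.61 without V1 control replicate 1. The RNA uc004fmn.3 of 130 bases had 7 and 8 in V1 control and 39 and 30 in V1 KD, a rise of 1.79 ± 0.35 with an adjusted p of 0.0129, and 101 in S1 control against 137 and 79 in S1 KD. Both were chosen among RNAs whose V1 control and KD libraries do not overlap.

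RNAs of 136, 87 and 158 bases rose by 1.21 ± 0.26, 1.14 ± 0.32 and 1.39 ± 0.36 (log2, SE). The first of them is the deepest, with 325 and 512 read starts in V1 control, 1678 and 845 in V1 KD, 1635 in S1 control replicate 2, 989 in S1 control replicate 1, and 2764 and 1823 in S1 KD. The falls were in RNAs read mainly at their 5′ end. The RNA uc022aew.1 of 66 bases had 19 and 20 in V1 control and 8 and 7 in V1 KD, at −1.64 ± 0.41 with an adjusted p of 0.0331. In S1 it had 75 in control replicate 2, 90 in control replicate 1, and 35 and 33 in KD, at −0.90 ± 0.51 with an adjusted p of 0.399, so the S1 KD values were also the lower ones without passing the test. The RNA uc001yxr.3 of 97 bases had 408 and 252 in V1 control and 249 and 135 in V1 KD, at −1.14 ± 0.30 with an adjusted p of 0.0390, and base 2 took 83.0 to 93.2% of these read starts. In S1 it had 73 in control replicate 2, 108 in control replicate 1, and 68 and 55 in KD, at −0.02 ± 0.37 in the fit without control replicate 1. The calls depended on single V1 libraries, and leaving out 1 of them leaves 1 library in its group. With 1 library left out, the change of uc021unh.1 ranged from 1.61 to 4.81 and that of uc001yxr.3 from −1.50 to −0.78. The RNAs of 136, 87 and 158 bases ranged from 0.89 to 1.52, 0.84 to 1.45 and 1.11 to 1.68.

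S1 read starts of small RNAs leaned upward with KD, while few single RNAs were called. The median log2 change in S1 was 0.43 for RNAs under 100 bases and 0.24 from 100 to 200 bases, against 0.02 over all transcripts, and the change was above 0 for 204 of 272 and 187 of 236 RNAs, or 75% and 79.2%, against 51.8% of all transcripts. Limma called 2 of 508, both higher, where it called 4.43% of all transcripts and 1.87% higher and 2.55% lower. These RNAs of 66 and 73 bases each had 1 read start in the single S1 control library of the fit, against 11 and 7, and 15 and 6, in S1 KD, and neither passed with a pseudocount of 2. The S1 control group holds 1 library in this fit, which is assumed to vary like the others.

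With S1 control replicate 1 added, on the transcripts that its table lists, 228 small RNAs could be fitted. The median S1 changes were then 0.45 under 100 bases and 0.44 from 100 to 200 bases, against 0.01 over all 4721 transcripts, and 13 small RNAs were called, all of them higher. These are 5.70% of the 228, where the same fit called 15.1% of all transcripts, 6.19% higher and 8.92% lower. The same transcripts without that library gave 0.50 and 0.36 and no call, with 33 small RNAs, or 14.5%, at an unadjusted p under 0.05, against 20.8% of all transcripts. Over the alternatives for scaling, filter and libraries the median S1 change ranged from 0.29 to 0.55 under 100 bases and from 0.10 to 0.44 from 100 to 200 bases. The lower ends came with equal totals, which moved the median of all transcripts to −0.12.

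The change of V1 over S1 with KD, tested directly as the interaction, was called by limma for 0 of 508 small RNAs and for 0% of all 16757 transcripts. An unadjusted p under 0.05 was reached by 32 small RNAs, or 6.30%, against 0.913% of all transcripts. The median difference was −0.48 log2 under 100 bases and −0.25 from 100 to 200 bases, against −0.03 over all transcripts, with median standard errors per RNA of 0.66 and 0.62. Values above 0 were found for 61 of 272 and 74 of 236 RNAs, or 22.4 and 31.4%, against 44.8% of all transcripts. Both medians kept their sign in the alternatives run, from −0.59 to −0.32 and from −0.35 to −0.11. None of the 5 named RNAs was called for KD with either enzyme, with adjusted p values by limma of 0.556 to 0.984 in V1, 0.252 to 0.964 in S1 and 1.00 for the interaction. Their S1 changes ranged from 0.05 to 0.61 and their V1 changes from −0.11 to 0.31.

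**Figure D5:**
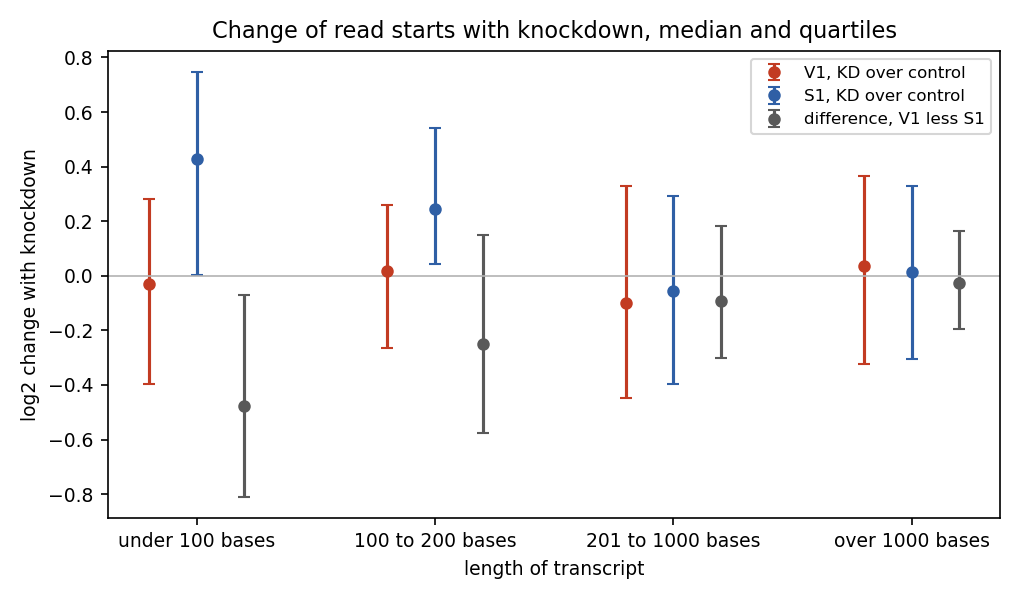
Log2 change of read starts with ADAR1 knockdown (y) by length of transcript (x), for V1, for S1 and for the difference of V1 less S1. Points are medians over transcripts with a mean of at least 10 read starts and bars reach from the lower to the upper quartile; the S1 medians of small RNAs lie at 0.43 and 0.24, those of longer transcripts near 0, and the V1 medians near 0 in each class.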

How the data were processed

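Per the paper, the authors aligned the PARS-seq reads to UCSC knownCanonical transcripts of hg19 with bowtie2 in local mode and kept uniquely aligned reads with a gapless 5′ match. They deposited, for each transcript, a list of whole-number counts of read starts per base, without normalization. Gene levels were deposited as RPKM, those of PARS-seq as the authors' means over V1 and S1. The paper lists uniquely aligned reads for the PARS-seq libraries only, so the depth of the other gene levels is unknown. Read starts were summed per transcript over the 18515 transcripts common to 7 libraries and scaled by median-of-ratios size factors. Sums lie within a list and not in a count column, so limma (version 3.58.1, R 4.3.3) was run with a mean trend on log2(value + 0.5), over 4 groups, with a mean of at least 10 read starts and Benjamini-Hochberg adjustment. The test was also run on simulated read starts with the same dispersion for every transcript. That run was not set to the spread of the small RNAs and says nothing on them alone. V1 over S1 per pair used a pseudocount of 1. Python 3.11.15 and RNAfold 2.7.2 were used. Named are the RNAs that the study names and, by identifier, the 2 largest rises and 2 largest falls called in V1 without overlap. Other RNAs, given by length, were chosen after their values were seen. Members and lists were chosen with earlier results of these data known. Replicates of a group differed by far more than sampling noise. RNA-seq and Ribo-seq were used for gene levels of ADAR and the markers only. Alternatives covered scaling, filters, pseudocount, voom weights, size limits, a replicate block, each library left out, and all 8 libraries. Sequences are given for SNORA52 alone. Reads carry no molecular identifiers.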

Additional observations from a re-analysis of the deposited data

How the results depend on the processing

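The cause of a change was not tested, beyond that some alternatives fit fewer RNAs or libraries. In V1 with knockdown 7 small RNAs were called, while equal totals called 21, beside 2191 of all 16757 transcripts. The fit on transcripts listed in all 8 tables gave 1 with all 8 libraries and 1 with 7. It called 13.4 and 12.8% of all transcripts. In S1 2 were called, while equal totals gave 5, totals without the most covered transcript 1, voom weights 1, and a mean of 50 read starts or a pseudocount of 2 gave 0. All 8 libraries gave 13 and the same transcripts with 7 libraries 0. That last fit was chosen after seeing the data. For V1 against S1 259 of 508 small RNAs were called, beside 23.3% of all transcripts. A mean of 50 gave 171 of 308, beside 3526 of all 13877 transcripts. On the transcripts of all 8 tables, 122 and 112 of 228 were called with 8 and 7 libraries. These are 53.5 and 49.1%, beside 40.7 and 34.9% of all transcripts. On those transcripts the small RNAs thus exceeded all transcripts by less than in the fit of 508. The interaction stayed at 0 calls in each setting run.

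Same-numbered replicates share a number and no stated origin. With 2 pairs an enzyme their deviations correlated at 0.380 in V1 and 0.467 in S1. Fitted with the replicate block, 69 small RNAs were called in V1 (30 higher, 39 lower), 44 in S1 (40 higher, 4 lower), 323 for V1 against S1 and 0 for the interaction. The block also called 34.3, 22.9, 45.2 and 0% of all transcripts.

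Leaving out 1 library at a time gave 0 to 24 calls in V1, 0 to 2 in S1, 223 to 246 for V1 against S1, and 0 for the interaction. Without S1 control replicate 2 the S1 change could not be fitted. SNORA67, not called, ranged from −0.0073 without V1 control replicate 2, where the adjusted p in limma was 0.976, to 0.13 without V1 control replicate 1. Of the values of single named or described RNAs, 204 kept their direction and their side of the threshold under the alternatives and 18 kept the direction only. With 1 library left out these were 106 and 44. Mean shares of bases covered then ranged from 6.11 to 6.98% (under 100 bases, V1), 7.18 to 7.74% (S1), 8.34 to 9.03% (100 to 200 bases, V1) and 8.70 to 9.10% (S1). The mean of the medians of log2 V1 over S1 ranged from −0.32 to −0.11 under 100 bases and from −0.22 to 0.04 above. First 10 bases ranged from 57.9 to 59.5%, 79.8 to 82.9%, 11.1 to 13.9% and 0.783 to 1.08% in the same order of class and enzyme, last 20 bases from 0.312 to 0.351%, 0.108 to 0.173%, 0.0256 to 0.0315% and 1.87 to 2.25%, and the most used base from 43.2 to 45.0%, 29.5 to 30.6%, 34.7 to 35.96% and 30.1 to 32.5%.

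In the same order, restricting to a mean of 10 read starts raised bases covered to 13.4, 15.6, 10.995 and 11.1%. Thinning to the smallest library gave 5.54 and 6.88% under 100 bases in V1 and S1, and 7.58 and 8.07% above in V1 and S1. A size limit of 80 bases gave 8.25% in S1 under the limit, and 7.51 and 7.99% above, and a limit of 120 gave 12.05 and 11.4% above. Totals without the most covered transcript moved the mean log2 V1 over S1 under 100 bases to 0.026.

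For the first 10 bases, medians over RNAs gave 35.7% (under 100 bases, V1), 21.3% (S1) and 1.93% (100 to 200 bases, V1). Without the most covered RNA of each class the sums were 51.3, 38.0, 39.8 and 1.98%. A limit of 80 gave 65.8 and 86.3% under it and 2.98% above it in S1, and a limit of 120 gave 6.28, 41.7, 46.6 and 1.52%. For the last 20 bases, medians were 0 in each class and enzyme. Without the most covered RNA the sums were 0.378, 0.494, 0.0904 and 4.70%. A limit of 80 gave 0.0372% above it in V1, and a limit of 120 gave 0.0658, 1.65, 0.00591 and 0.0137%. For the most used base, a limit of 80 gave 28.4% under it in S1 and 38.5% above it in V1, and a limit of 120 gave 30.2 and 28.9% above it. Values by size class that are not given moved by less than the SD over libraries or pairs.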
